A study of Saccharomyces cerevisiae BY4741 with 238 samples.

Results

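The genes described here are the 40 nuclear genes of Saccharomyces cerevisiae for oxidative phosphorylation: 4 subunits of complex II, 9 of complex III, the 2 cytochrome c isoforms, 9 subunits of complex IV, 14 of ATP synthase and the 2 ATP synthase inhibitor proteins. They were chosen by name from a list and kept if their mean value over all libraries was at least 10, which 40 of 40 did, out of 6717 features in the table and 5015 with such a mean. The lowest means were those of RIP1 (10.7) and SDH2 (15.9). The cultures were wells of BY4741, a laboratory MATa strain derived from S288C that carries mutant HIS3, LEU2, MET17 and URA3 markers, grown in rich glucose medium (YPD) on grids of 2 drugs. The drugs were cycloheximide, which blocks translation elongation, LiCl, a toxic salt, myriocin, which blocks the first step of sphingolipid synthesis, and rapamycin, which inhibits the kinase complex TORC1. 6 experiments, one per drug pair, are named here by the initials of the drugs (CL, CM, CR, LM, LR and MR).

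Of 238 cultures, 11 had no drug (relative growth 1.02 ± 0.0371, SD), and 4 groups had a single drug at relative growth from 0.35 to 0.66. These were cycloheximide at 0.0522 to 0.0764 μg/ml (n = 10), LiCl at 9235 to 15726 μg/ml (n = 10), myriocin at 0.349 to 0.51 μg/ml (n = 11) and rapamycin at 0.00396 to 0.00662 μg/ml (n = 11). The same drugs at slower or faster growth were present in 13, 18, 14 and 19 more cultures, and 121 cultures held 2 drugs (22 in CL, 20 in CM, 19 in CR, 26 in LM, 18 in LR and 16 in MR). Values are quantile-normalised read counts from the 3′ end of polyadenylated RNA, in which every library has the same distribution. They are relative to the rest of the library, so that less RNA per cell and fewer cells cannot be told apart. Levels of different genes are not compared here. Estimated depth was 64843 to 2017612 reads per library (median 568842). The labels do not say that wells came from separate inocula, so p-values measure the spread between wells that also differ in dose.

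Oxidative phosphorylation passes electrons from succinate and NADH through ubiquinone, complex III, cytochrome c and complex IV to oxygen, and ATP synthase uses the resulting proton gradient to make ATP. S. cerevisiae lacks a proton-pumping complex I and ferments on glucose, where many respiratory genes are repressed. The CCAAT-binding complex of Hap2, Hap3, Hap4 and Hap5 activates many of these genes when glucose is low, the heme-responsive factor Hap1 activates CYC1 and others (S288C and its descendants carry a transposon insertion in HAP1), and CYC7 and COX5B encode the isoforms favoured when oxygen is scarce. Complexes III and IV and ATP synthase also need subunits from mitochondrial DNA. The mitochondria-encoded COX1, COX2, COX3, COB, ATP6, ATP8, OLI1 and VAR1 were at the lowest value of the column in 238 of 238 libraries, so their levels are not described.

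The promoters of 5 genes that the results turn on are shown to compare a set that holds the CCAAT motif with a set that does not. Each runs from 250 bases before the first base of the coding sequence to 50 bases into it, in the direction of the gene, from the RefSeq S288C sequence of build R64. Capitals mark CCAAT or its reverse complement ATTGG. SDH2 (chrXII:53882-54181, minus strand), COX6 (chrVIII:209455-209754, plus strand) and COX12 (chrXII:225123-225422, minus strand) hold it. CYC1 (chrX:526085-526384, plus strand) and CYC7 (chrV:79928-80227, minus strand) have no match within the bases shown.
SDH2: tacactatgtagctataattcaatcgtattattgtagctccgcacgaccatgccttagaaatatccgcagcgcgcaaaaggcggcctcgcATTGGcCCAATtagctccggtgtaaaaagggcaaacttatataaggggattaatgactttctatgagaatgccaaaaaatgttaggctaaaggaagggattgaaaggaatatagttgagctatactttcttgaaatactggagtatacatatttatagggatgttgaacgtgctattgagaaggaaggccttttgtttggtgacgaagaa
COX6: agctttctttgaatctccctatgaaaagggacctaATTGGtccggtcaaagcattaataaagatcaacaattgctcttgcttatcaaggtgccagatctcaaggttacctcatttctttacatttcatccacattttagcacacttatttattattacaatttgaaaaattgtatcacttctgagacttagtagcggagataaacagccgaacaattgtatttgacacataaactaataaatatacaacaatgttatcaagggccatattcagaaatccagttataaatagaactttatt
COX12: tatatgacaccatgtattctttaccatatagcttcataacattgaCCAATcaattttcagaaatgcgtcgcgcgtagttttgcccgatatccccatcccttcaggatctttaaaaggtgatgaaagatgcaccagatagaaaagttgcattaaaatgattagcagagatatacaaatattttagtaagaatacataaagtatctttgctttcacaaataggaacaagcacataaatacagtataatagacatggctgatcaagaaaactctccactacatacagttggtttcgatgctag
CYC1: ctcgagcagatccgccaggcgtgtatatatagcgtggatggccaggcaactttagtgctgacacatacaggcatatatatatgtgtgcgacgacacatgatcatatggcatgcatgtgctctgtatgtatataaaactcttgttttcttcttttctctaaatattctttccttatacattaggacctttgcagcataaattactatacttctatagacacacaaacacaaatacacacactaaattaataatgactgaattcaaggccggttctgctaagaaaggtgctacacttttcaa
CYC7: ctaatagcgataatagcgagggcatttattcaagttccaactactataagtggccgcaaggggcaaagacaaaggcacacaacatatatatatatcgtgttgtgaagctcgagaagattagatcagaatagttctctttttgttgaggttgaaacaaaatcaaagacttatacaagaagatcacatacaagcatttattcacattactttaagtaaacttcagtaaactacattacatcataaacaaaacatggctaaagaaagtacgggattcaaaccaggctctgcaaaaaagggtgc

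In SDH2 the matches lie at -160 and -154 from the start codon on opposite strands, in COX6 at -215 and in COX12 at -205. CCAAT on either strand was found in 33 of 40 promoters (82.5%), against 2601 of 6001 promoters of the same length (43.3%). It was found in 4 of 4 genes of complex II, 7 of 9 of complex III, 8 of 9 of complex IV, 13 of 14 of ATP synthase and 0 of 2 for cytochrome c. The windows without it belong to COR1, CYT1, CYC1, CYC7, COX4, ATP1 and STF1. One form of the Hap1 site (CGG, 3 bases of any kind, TA, 1 base, CGG) was found in QCR6 alone (2.5%, against 0.133% of all promoters), and ATTGTT, the core of the site bound by the hypoxic repressor Rox1, in 16 (40%, against 35.2%). A match describes letters in a window and is not a binding site. Sequence further upstream was not searched, so a window without a match does not show that the gene lacks the motif or its regulator. This holds for CYC1 and CYC7, and for the Hap1 form in every gene but QCR6.

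The 40 genes varied together from culture to culture. The median Pearson correlation of log2 values over 238 libraries was 0.71 between pairs of these genes and 0.00475 between all pairs of tested features. After the mean of each group in each experiment was removed it was 0.422, against 0.00311. These are descriptions, since the libraries share experiments and the genes share libraries. Correlation with the median of the other members was 0.927 for COX13, 0.903 for QCR7 and 0.883 for QCR8, small subunits of complexes IV and III. It was 0.314 for CYC1, 0.385 for COX5B, 0.446 for SDH2 and 0.494 for RIP1. CYC1, SDH2 and RIP1 have the lowest mean values of the 40 (18.4, 15.9 and 10.7), and COX5B has 291. The part of low counts in these correlations was not tested. After group means were removed they were 0.452 for CYC1, 0.26 for COX5B, 0.497 for SDH2 and 0.457 for RIP1. The 2 cytochrome c genes had a correlation of 0.18 with each other, COX5A and COX5B of 0.284, and the inhibitors INH1 and STF1 of 0.866.

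The median over the 40 genes, as log2(value + 1) minus each gene's mean in the drug-free cultures, was then taken for each culture. Drug-free cultures ranged from -0.46 to 0.25 with a median of 0.08. Cycloheximide cultures ranged from -0.45 to 0.24 (median 0.06), LiCl cultures from -0.83 to 0.13 (median -0.14), myriocin cultures from -0.14 to 0.90 (median 0.47) and rapamycin cultures from -0.41 to 0.30 (median 0.03). The ranges of all 5 groups overlap, with the highest values under myriocin and the lowest under LiCl. The experiment moved with these values. In experiment CL the 2 drug-free cultures were at -0.46 and -0.24 and the 22 mixtures at -0.73 to -0.26, while in experiment LM the 2 drug-free cultures were at 0.23 and 0.25 and the 26 mixtures at 0.38 to 0.79. The experiment and the growth-reference set, explained with the gradients, were therefore terms of every comparison between groups, and values within experiments are given beside the results.

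**Figure D1:**
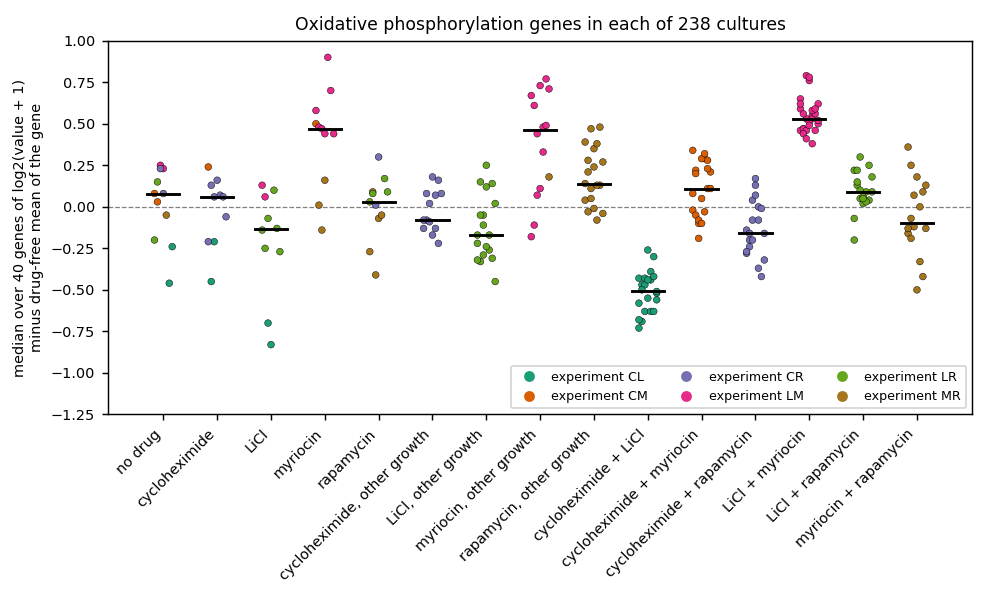
Each point is 1 culture, coloured by experiment; the y axis is the median over the 40 genes of log2(value + 1) minus the drug-free mean of the gene, and black lines are group medians. Mixtures of cycloheximide with LiCl lie at -0.73 to -0.26 and mixtures of LiCl with myriocin at 0.38 to 0.79.

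Growth-matched cultures of each drug were first set against those with none. Under LiCl, 3 genes for complex IV, 1 for cytochrome c and 1 for complex II fell by at least 1.5-fold. These were COX4, COX6 and COX12, subunits of complex IV, CYC1, the main cytochrome c of aerobic cells, and SDH2, the iron-sulfur subunit of succinate dehydrogenase. 5 of 40 genes were called lower and 0 higher, where called means an adjusted p under 0.05 in limma (Benjamini-Hochberg over 5015 features) and a change of at least 1.5-fold. Of all features tested, 4.13% were called lower and 4.41% higher in this comparison. The median log2 change was -0.23 over the 40 genes and -0.02 over all features, with 38 of 40 genes below 0. By complex the median was -0.47 in complex IV, where 3 of 9 genes were called, -0.08 in complex II (1 of 4), -0.16 in complex III (0 of 9) and -0.22 in ATP synthase (0 of 14). At an adjusted p under 0.05 alone, 11 genes were lower and 1 higher. Those that did not pass 1.5-fold were COX8, COX9, QCR2, QCR10, ATP15 and ATP16, which were lower, and CYC7, which was higher.

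SDH2 (YLL041C, chrXII:53131-53931) ranged from 3.13 to 19.7 under LiCl (median 10.6) and from 10.9 to 33.2 without drug (median 17.2). COX6 (YHR051W, chrVIII:209705-210151) ranged from 37 to 86.2 (median 62.7) against 75.2 to 123 (median 101). COX12 (YLR038C, chrXII:224921-225172) ranged from 31.4 to 70.3 (median 54.2) against 55.7 to 123 (median 85.8). In each case the groups overlap and the LiCl median lies below the lowest drug-free value. The fitted log2 change was -0.96 ± 0.224 (SE) for SDH2 (adjusted p = 0.00146, limma), -0.76 ± 0.117 for COX6 (adjusted p = 2.53e-06) and -0.75 ± 0.118 for COX12 (adjusted p = 2.96e-06).

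CYC1 (YJR048W, chrX:526335-526664) lay between 7.41 and 13.5 in 9 LiCl cultures and at 34 in the culture with the lowest depth of all (64843 reads), against 10.7 to 26.8 without drug (median 17.9). COX4 (YGL187C, chrVII:149704-150171) ranged from 12.1 to 44.1 (median 30.2) against 22.4 to 52.9 (median 42.3). Both overlap between the groups. The log2 change was -0.80 ± 0.210 for CYC1 (adjusted p = 0.00474), not called with a pseudocount of 10 (-0.49) or without experiment LM (-0.75), and -0.64 ± 0.192 for COX4 (adjusted p = 0.0142). CYC7, the second cytochrome c gene, went the other way without passing 1.5-fold (0.47 ± 0.155, adjusted p = 0.0274), from 151 to 771 under LiCl against 96.9 to 433. Its convergent neighbour UTR2 ends 180 bp away and that of CYC1, UTR1, 220 bp away, and the strand setting of the counting is not given in the sources used here.

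Within experiments COX6 differed between LiCl and no drug by -1.01 in CL, -0.80 in LM and -0.51 in LR on the log2 scale, and COX12 by -0.75, -1.15 and -0.45. For SDH2 these differences were -1.16, -1.52 and -0.69, for CYC1 -0.32, -0.95 and -0.48, and for COX4 -0.97, -0.61 and -0.53. The median over the 40 genes was -0.44 in CL, -0.10 in LM and -0.12 in LR, with 2 drug-free cultures in each. All 5 genes were thus lower in each of 3 experiments, while the median of the 40 genes was further below 0 in CL than in LM or LR.

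Under myriocin the 40 genes lay above the drug-free cultures by a median of 0.27 (all features -0.01), with 35 of 40 above 0 and 1 called, CYC1. 3.53% of all features were called higher and 3.69% lower. CYC1 ranged from 17.5 to 30.8 (median 25.6) against 10.7 to 26.8, groups that overlap, with a change of 0.65 ± 0.217 (adjusted p = 0.0329). This call was lost in 7 of the alternatives, and its values there were 0.43 to 0.71. A further 10 genes passed the adjusted p without 1.5-fold, 7 of the 11 in ATP synthase. ATP18, a subunit of the membrane part of ATP synthase, ranged from 210 to 365 (median 318) against 156 to 240 (median 212), a change of 0.47 ± 0.0941 (adjusted p = 0.000497), and ATP19 had a median of 273 against 172 (0.49 ± 0.118, adjusted p = 0.00298). Within experiments the median of the 40 genes was 0.45 in CM (1 myriocin culture), 0.31 in LM (7) and 0.07 in MR (3).

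Cycloheximide and rapamycin had no gene called against no drug. With cycloheximide 20 genes were above and 20 below 0, with a median of 0.00, 2 genes at an unadjusted p under 0.05 in limma, and 2.47% of all features called. With rapamycin the median was 0.05, 10 genes had an unadjusted p under 0.05, 9 of them higher, and 5.34% of all features were called. COX5B, the isoform of complex IV subunit V favoured at low oxygen, was the 1 gene with an adjusted p under 0.05 (0.38 ± 0.0992, adjusted p = 0.00598), below 1.5-fold. It ranged from 265 to 460 under rapamycin (median 347) and from 227 to 332 without drug (median 260), and the groups overlap.

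**Figure D2:**
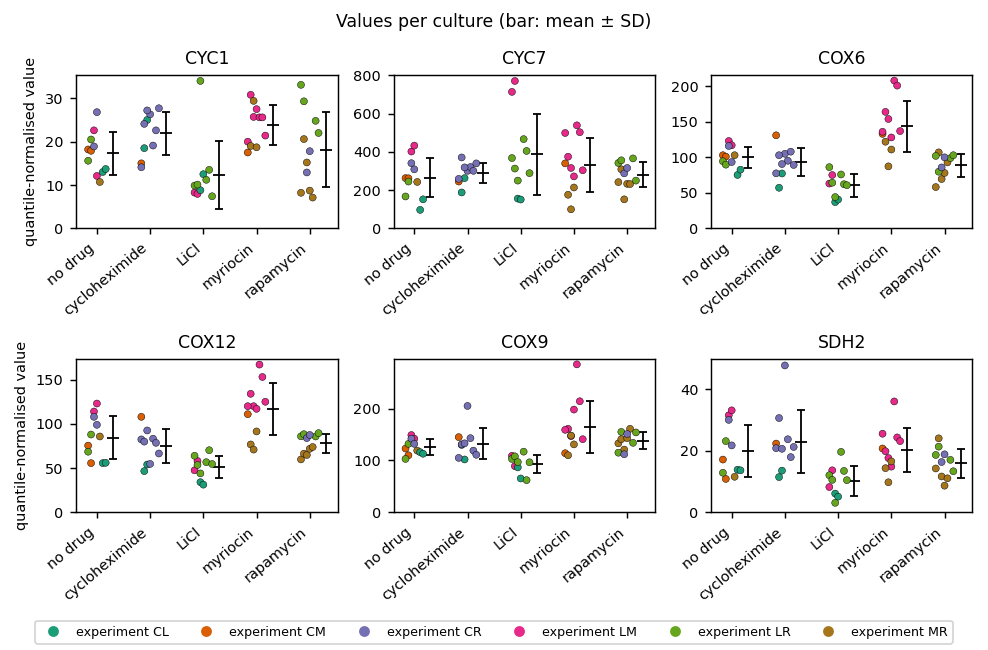
Quantile-normalised value (y axis, linear from 0) of 6 genes in the drug-free and growth-matched single-drug cultures; points are cultures coloured by experiment, bars are mean ± SD. COX6 and COX12 lie at 87.3 and 71 or above in every myriocin culture and at 86.2 and 70.3 or below in every LiCl culture.

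The drugs were then compared with each other, in contrasts that share groups. Myriocin and LiCl were furthest apart by number of calls: 19 of 40 genes were called higher under myriocin than under LiCl and 1 lower, where 6.04% of all features were called higher and 6.48% lower. The median log2 difference was 0.56 (all features -0.01), with 38 of 40 genes above 0. The calls were in every complex, with 7 of 9 genes in complex IV, 3 of 9 in complex III, 6 of 14 in ATP synthase, 1 of 4 in complex II, CYC1, and the inhibitor INH1.

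COX6 ranged from 87.3 to 208 under myriocin (median 136) and from 37 to 86.2 under LiCl, and COX12 from 71 to 167 (median 120) and 31.4 to 70.3. These were the 2 genes whose groups did not overlap, which held for 0.877% of all features in that direction. The log2 differences were 1.08 ± 0.131 for COX6 (adjusted p = 8.56e-09) and 1.05 ± 0.132 for COX12 (adjusted p = 2.04e-08). CYC1 differed by 1.46 ± 0.235 (adjusted p = 5.89e-06) and COX8, a small complex IV subunit, by 0.92 ± 0.184 (adjusted p = 0.00017), with COX8 at 26.2 to 72.4 against 11 to 44.1. CYC7 (YEL039C, chrV:79636-79977) was the gene called lower (-0.66 ± 0.174, adjusted p = 0.00369), at 99.9 to 539 under myriocin and 151 to 771 under LiCl, groups that overlap.

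Only experiment LM held both drugs. There the median difference between 7 myriocin and 2 LiCl cultures was 0.51, with 37 of 40 genes higher, and COX6, COX12 and CYC1 differed by 1.19, 1.32 and 1.52. Without experiment LM, 6 genes were called higher and 0 lower, and without CL 11 were called higher. The call for CYC7 was also lost with density as a term and with the library-number series as batch. With a pseudocount of 10, 9 were called higher.

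The other contrasts with LiCl named fewer genes. Against cycloheximide LiCl cultures were lower in COX9, COX6, CYC1, SDH2 and COX12 (2.57% of all features called lower), and rapamycin cultures were higher than LiCl cultures in the same 5 (5.08% called higher), which share the LiCl cultures. Without the libraries under 142211 reads SDH2 was not called against rapamycin (0.55). CYC1 was at 14.1 to 27.7 under cycloheximide and 7.11 to 33.1 under rapamycin. COX9, a small complex IV subunit, was at 62.2 to 117 under LiCl, 102 to 205 under cycloheximide, 112 to 161 under rapamycin and 110 to 285 under myriocin. For COX9 the LiCl range overlaps every other range at its upper end. For CYC1 the highest LiCl culture was at 34, in the library of lowest depth, and the next at 13.5. With that culture the LiCl range of CYC1 covers the cycloheximide range, and the rapamycin range begins below that of LiCl.

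4 genes were lower under LiCl than under each of the 3 other drugs when all contrasts had to pass 1.5-fold and the largest p had to pass after adjustment: COX6 (-0.62 ± 0.120 for the contrast nearest 0, adjusted p = 0.00161), COX12 (-0.62 ± 0.144, adjusted p = 0.00988), COX9 (-0.60 ± 0.149, adjusted p = 0.0192) and CYC1 (-0.77 ± 0.215, adjusted p = 0.0487). 0.538% of all features met this rule. The remaining contrasts each named 1 gene or none. ATP17, subunit f of ATP synthase, was higher under myriocin than cycloheximide (0.65 ± 0.164, adjusted p = 0.012; 1.48% called higher), CYC1 was lower under rapamycin than myriocin (-0.68 ± 0.227, adjusted p = 0.0245; 4.87% called lower), and rapamycin against cycloheximide named 0 (5.12% called), with 6 at an unadjusted p under 0.05 in limma. ATP17 ranged from 56.6 to 148 under myriocin and 37 to 77.5 under cycloheximide, with overlap, and was not called without CM, CR or LM, at 0.54 to 0.69.

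**Figure D3:**
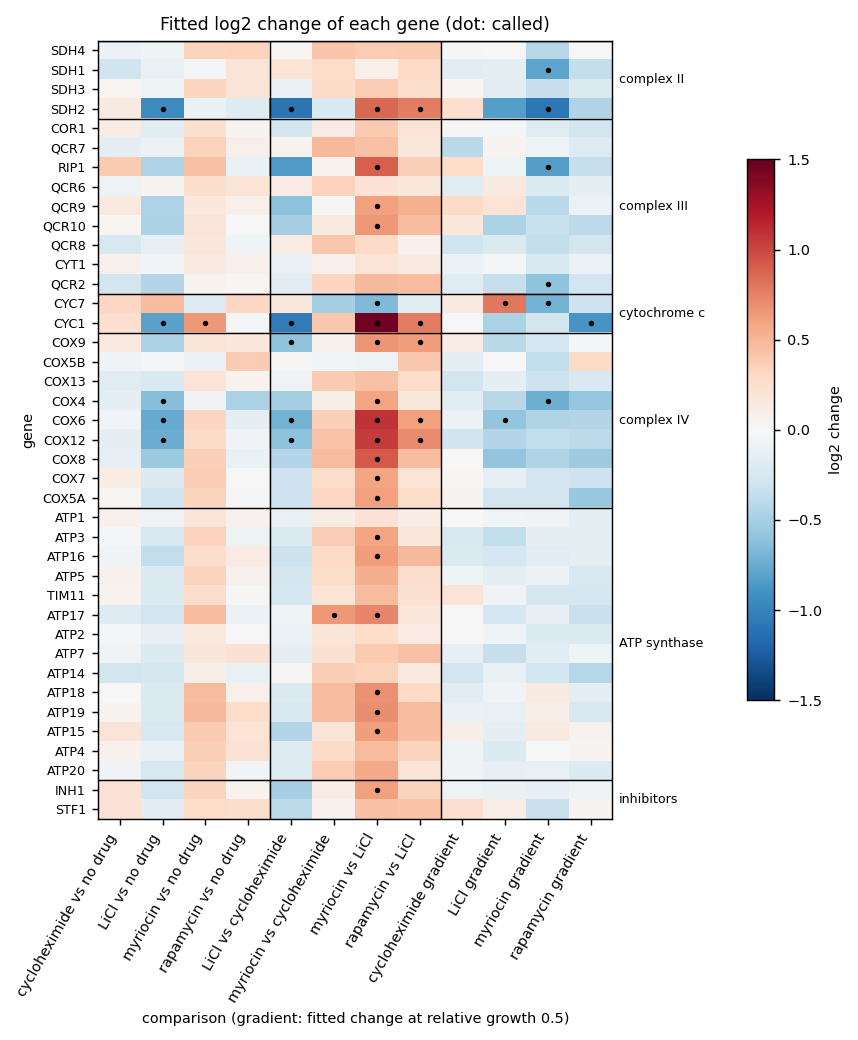
Fitted log2 change of each of the 40 genes (y axis, by complex) in 12 comparisons (x axis), from blue (lower) to red (higher); dots mark calls at an adjusted p under 0.05 and at least 1.5-fold. The column for myriocin against LiCl holds 20 dots, and the myriocin gradient holds 6.

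The dependence on dose was taken from the experiment that held a gradient of each drug, as the fitted change at a relative growth of 0.5. These fits use some of the same cultures as the comparisons above. In the cycloheximide gradient (22 cultures, relative growth 0.465 to 1.12) 0 of 40 genes were called, 9 had an unadjusted p under 0.05 in limma, and the median was -0.06, where 5.32% of all features were called. At an adjusted p under 0.05 without 1.5-fold, 2 genes were lower and 1 higher. QCR7 had -0.41 ± 0.103 (adjusted p = 0.00682, limma), COX13 -0.27 ± 0.0828 (adjusted p = 0.0258) and STF1 0.24 ± 0.0741 (adjusted p = 0.0265). CYC1 was at 18.6 to 26.8 at a relative growth of at least 0.9 and at 14.1 to 27.7 from 0.35 to 0.66, and COX6 at 77.6 to 116 and 77.5 to 108. Both overlap over nearly the whole range.

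In the LiCl gradient (26 cultures, relative growth 0.511 to 1.04) CYC7 rose and COX6 fell (2.65% of all features called higher, 4.09% lower). CYC7 was at 166 to 280 (median 239) at a relative growth of at least 0.9, at a median of 247 (highest 319) from 0.66 to 0.9 and at 250 to 467 (median 340) from 0.35 to 0.66. COX6 was at 73.9 to 127 (median 89.5), 52.3 to 89 (median 75.8) and 44.1 to 86.2 (median 63.2). Neighbouring growth classes overlap in both genes, and the medians move in opposite directions. The changes were 0.79 ± 0.127 for CYC7 (adjusted p = 5.31e-05) and -0.59 ± 0.156 for COX6 (adjusted p = 0.0094). The call for COX6 was lost without the libraries under 142211 reads (-0.51), with a pseudocount of 10 (-0.53) and with final optical density as a term (-0.51). SDH2 had a change of -0.83 ± 0.362 that did not pass (adjusted p = 0.133), and 14 of 14 ATP synthase genes and 9 of 9 complex IV genes had slopes below 0.

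In the rapamycin gradient (25 cultures, relative growth 0.356 to 1.03) CYC1 fell by 0.88 ± 0.168 on the log2 scale (adjusted p = 0.000142; 2.65% of all features called lower), and was not called with a pseudocount of 10 (-0.55). It was at 10.7 to 33.3 in the 17 cultures at a relative growth of at least 0.9 (median 23.9), at 17.8 to 31.1 in 3 cultures from 0.66 to 0.9, and at 7.11 to 20.6 in 5 cultures from 0.35 to 0.66 (median 8.71). The lowest and highest growth classes overlap. This gradient is from experiment MR, and over all experiments CYC1 under rapamycin differed from no drug by -0.03 ± 0.209 (adjusted p = 0.96). Within experiments that difference was -0.54 in CR, 0.57 in LR and 0.04 in MR, where 1 drug-free culture was at 10.7. In LR the 4 rapamycin cultures (22 to 33.1) lay above both drug-free cultures (15.6 and 20.5). A further 21 genes had a slope below 0 at an adjusted p under 0.05 without 1.5-fold, and the median over the 40 genes was -0.23 (all features -0.03). The isoforms of complex IV subunit V differed in sign: COX5A had -0.57 ± 0.116 (adjusted p = 0.000328) and COX5B 0.29 ± 0.0827 (adjusted p = 0.00845), neither past 1.5-fold.

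The myriocin gradient (22 cultures) reached near arrest, with relative growth from 0.0358 to 1.00. The median of the 40 genes did not follow growth in one direction: it was 0.23 and 0.25 in the drug-free cultures of this experiment, up to 0.90 in cultures with intermediate growth, and 0.33, 0.11, 0.07, -0.11 and -0.18 in the 5 cultures with relative growth of 0.331, 0.198, 0.12, 0.0733 and 0.0358. In these 5 cultures the dose rose from 0.579 to 0.962 μg/ml and depth was between 127812 and 281769 reads. At the highest dose complex II was at -0.85, complex IV at -0.24 and ATP synthase at 0.08.

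6 genes were called lower along this gradient, where 8.04% of all features were: SDH1 and SDH2, the catalytic subunits of succinate dehydrogenase, RIP1, the Rieske iron-sulfur protein of complex III, QCR2, a core subunit of complex III, COX4 and CYC7. SDH2 was at 26.9 to 33.2 in 6 cultures at a relative growth of at least 0.9, at 17.7 to 26.4 in 4 from 0.66 to 0.9, at 14.9 to 36.1 in 7 from 0.35 to 0.66, and at 4.63, 12.2, 8.09, 3.00 and 10.1 in the 5 slowest, from the highest dose down. CYC7 was at 402 to 468, 375 to 618 and 272 to 539 in the first 3 classes and lower in the 5 slowest, of which the highest were 218 at 0.962 μg/ml and 277 at 0.579 μg/ml. For SDH2 the slowest cultures lie below every other culture, and for CYC7 they overlap with the next class in 1 culture.

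The fitted change was -1.08 ± 0.170 for SDH2 (adjusted p = 9.44e-06), -0.71 ± 0.101 for CYC7 (adjusted p = 2.4e-06), -0.79 ± 0.163 for SDH1 (adjusted p = 0.00029), -0.73 ± 0.159 for COX4 (adjusted p = 0.000483), -0.60 ± 0.104 for QCR2 (adjusted p = 3.62e-05) and -0.83 ± 0.266 for RIP1 (adjusted p = 0.0131). With cultures below a relative growth of 0.35 left out, 0 were called, SDH1 was at -0.12, SDH2 at -0.53 and COX4 at -0.60, and RIP1 was at 0.43. ATP synthase genes had 0 of 14 calls and a median slope of -0.12, complex II a median of -0.61 with 4 of 4 at an adjusted p under 0.05. ATP18 was at 268 to 306 in the 5 slowest cultures, above all drug-free cultures of the series (156 to 240).

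**Figure D4:**
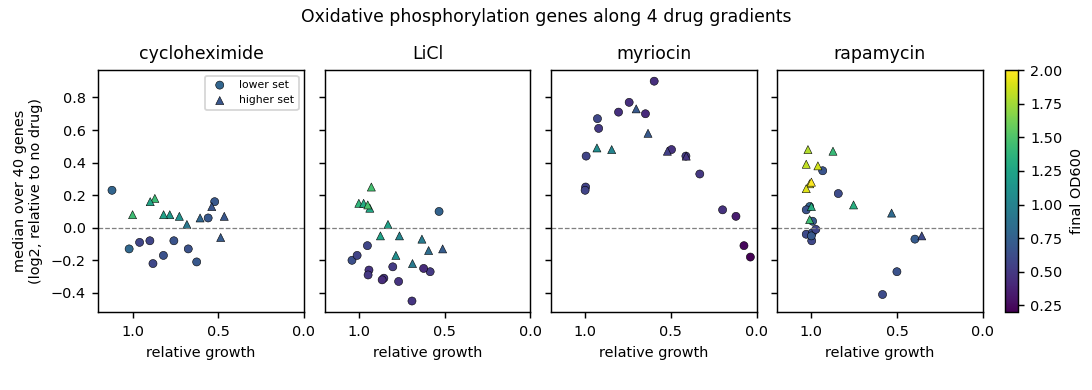
Median over the 40 genes per culture (y axis, log2 relative to the drug-free mean of all experiments) against relative growth (x axis, falling to the right) in the experiment that held each gradient; circles and triangles are the lower and higher growth-reference set, and colour is final optical density. Under myriocin the median reaches 0.90 at intermediate growth and falls to -0.18 at a relative growth of 0.0358.

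Each gradient came in 2 growth-reference sets, told apart in the labels by how absolute growth relates to relative growth, and the sets reached different final optical densities. The slope differed between sets for 0 of 40 genes in each gradient (0.0199%, 0.0997%, 0.439% and 0.259% of all features called in the order below), with 2, 13, 2 and 1 genes at an unadjusted p under 0.05 in limma for cycloheximide, LiCl, myriocin and rapamycin. Where cultures with the same dose reached different densities, the change per doubling of final optical density was above 0 for 37 of 40 genes with a median of 0.14, but 0 were called (1.08% of all features) and 15 had an unadjusted p under 0.05. Among pairs of one dose with a density ratio of at least 1.5, the median of the 40 genes was higher in the denser culture in 12 of 12 pairs of LR, 10 of 10 of MR, 5 of 6 of CR and 1 of 4 of LM. The denser culture of each such pair was of the higher reference set, so these counts cannot tell density from set. Among pairs with a ratio under 1.5, the median was higher in the higher set in 5 of 10 (median difference 0.04). Myriocin cultures had final optical densities of 0.399 to 0.719 and LiCl cultures of 0.425 to 0.943, and drug-free cultures of 0.553 to 1.44. With density as a term 6 calls against no drug and 33 between drugs were made, where 6 and 32 were made without it.

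Mixtures were compared with both of their single drugs. All mixtures were in the higher growth-reference set. 0 of 40 genes lay beyond both single drugs in any of 6 mixtures under the rule that both contrasts pass (0.319% of all features in LiCl with myriocin, 0.0199% in cycloheximide with rapamycin and 0% in the others). At an unadjusted p under 0.05 in limma, for the contrast nearest 0, there were 6 genes lower with cycloheximide and myriocin, 13 lower with cycloheximide and rapamycin, and 0 in the other 4 mixtures. In cycloheximide with rapamycin 37 of 40 genes were below both single drugs, with a median of -0.18 for the contrast nearest 0.

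LiCl with myriocin resembled myriocin more than LiCl in these genes. Against LiCl 9 of 40 were called higher (3.51% of all features), with a median of 0.45, and against myriocin 0 were called (4.41% called in either direction), with a median of -0.07 and 8 at an unadjusted p under 0.05 in limma. At an adjusted p under 0.05 alone, 26 genes were higher and 0 lower against LiCl, and 1 was higher and 4 lower against myriocin. COX12 was at 75.5 to 156 in 26 mixtures (median 113), above all 10 LiCl cultures (31.4 to 70.3), with a difference of 0.83 ± 0.137 (adjusted p = 1.29e-06). COX6 was at 104 or more (median 123), also above all LiCl cultures, with 0.76 ± 0.142 (adjusted p = 2.19e-05). All 26 mixtures are from LM, which held 2 of the 10 LiCl cultures, so these separations mix drug with experiment. The share of all features separated in this way was not counted. CYC1 was at 10 to 33 (median 18.6), which overlaps LiCl, with 0.88 ± 0.266 (adjusted p = 0.0134), and QCR10, a small subunit of complex III with 1 intron, at 54.2 to 100 against 16.5 to 59.8 (0.79 ± 0.187, adjusted p = 0.00134). The remaining calls were COX9, QCR9, COX8, ATP16 and ATP17, at 0.65 to 0.73. Within experiment LM 38 of 40 genes were higher in mixtures than in the 2 LiCl cultures, with a median of 0.47.

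Cycloheximide with myriocin and with rapamycin had members called lower than under myriocin or rapamycin alone, which did not hold for cycloheximide with LiCl. With myriocin, QCR7, QCR6 and ATP14 were called lower than under myriocin (1.93% of all features), with 39 of 40 genes below 0 and a median of -0.39. QCR7 was at 164 to 278 against 139 to 417 (median 291), with a difference of -0.72 ± 0.161 (adjusted p = 0.00306), and QCR6 at 223 to 392 against 282 to 497 (-0.69 ± 0.159, adjusted p = 0.00381). Both overlap. With rapamycin, SDH1 (-0.89 ± 0.197, adjusted p = 0.000487) and SDH4, a membrane anchor of complex II (-0.71 ± 0.131, adjusted p = 3.75e-05), were called lower than under rapamycin (1.81%), with 38 of 40 below 0. SDH4 was at 77.6 to 127 against 91.3 to 237 and SDH1 at 22.8 to 67.3 against 31.9 to 86, with overlap in both. Against cycloheximide alone these mixtures had 0 calls (0.558% and 0.479% of all features), with 7 and 23 genes at an unadjusted p under 0.05 in limma. Experiment CM held 1 culture of each single drug, both in the lower growth-reference set, so mixture and set cannot be told apart within CM. The set term for CM therefore rests on the other experiments. CR held 2 cultures of rapamycin alone.

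The other mixtures named 2 genes. LiCl with rapamycin had SDH2 above LiCl (0.75 ± 0.234, adjusted p = 0.0199; 3.21% called higher), at 9.06 to 26.4 against 3.13 to 19.7, and CYC1 below rapamycin (-0.75 ± 0.233, adjusted p = 0.0361; 0.479% called lower), at 7.36 to 22.1 against 7.11 to 33.1. Both overlap. Against LiCl 39 of 40 genes were above 0 in this mixture. Cycloheximide with LiCl and myriocin with rapamycin had 0 calls against either single drug (2.19% and 1.4% of all features called against cycloheximide and LiCl, 2.81% and 0.818% against myriocin and rapamycin), with 12 and 12 at an unadjusted p under 0.05 in limma over both contrasts. In cycloheximide with LiCl 27 of 40 genes were above LiCl alone (median 0.07) and 35 of 40 below cycloheximide alone (median -0.12). Within experiment CL, with 2 cultures of each single drug, 39 of 40 were above LiCl (median 0.23) and 38 of 40 below cycloheximide (median -0.17). In myriocin with rapamycin 33 of 40 were below myriocin (median -0.18) and 24 of 40 above rapamycin (median 0.03).

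Position along the dose share of a pair was fitted within its experiment, without a term for the growth-reference set. Departure from a straight line between the single drugs was called for COX8 in cycloheximide with LiCl (0.76 ± 0.152, adjusted p = 0.00327; 0.738% of all features called higher; not called with a pseudocount of 10, at 0.52) and for 0 genes in the other 5 pairs (1.1% of all features called in cycloheximide with myriocin, 4.03% with rapamycin, 5.52% in LiCl with myriocin, 0.319% with rapamycin and 1.34% in myriocin with rapamycin). COX8 was at 14.9 to 32 in these mixtures (median 22.0). In cycloheximide with rapamycin 10 genes departed downwards and in LiCl with myriocin 11 upwards and 1 downwards at an adjusted p under 0.05 without 1.5-fold. The other 3 pairs had 10 or 4 genes at an unadjusted p under 0.05. In LiCl with myriocin the median of the 40 genes was 0.38 to 0.49 in the 4 mixtures with the smallest share of myriocin, 0.06 and 0.13 in LiCl alone, and 0.44 to 0.90 in myriocin alone. In cycloheximide with LiCl it fell from -0.68 to -0.39 at the smallest shares of LiCl to -0.73 to -0.52 at the largest, with LiCl alone at -0.83 and -0.70.

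**Figure D5:**
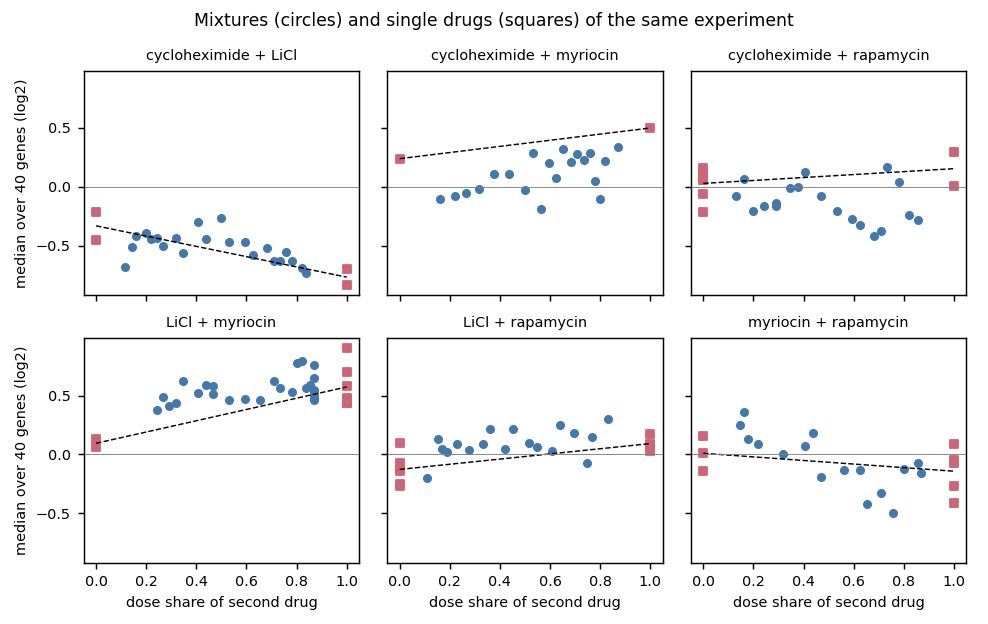
Median over the 40 genes per culture (y axis, log2 relative to the drug-free mean of all experiments) against the dose share of the second-named drug (x axis, from 0 to 1); circles are mixtures, squares single-drug cultures of the same experiment, and the dashed line joins the means of the squares. In LiCl with myriocin the 4 mixtures with the smallest share lie at 0.38 to 0.49, above LiCl alone at 0.06 and 0.13.

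The isoform pairs were followed as the difference of their log2 values, read between groups and not between genes. CYC7 minus CYC1 was 2.80 to 5.05 without drug (mean 3.79 ± 0.603, SD, n = 11), 2.84 to 6.43 under LiCl (4.81 ± 1.12), 3.71 to 5.88 in LiCl with myriocin (4.88 ± 0.644) and 3.91 to 5.63 in LiCl with rapamycin (4.68 ± 0.556). In cycloheximide with LiCl it was 2.80 to 4.56 (3.42 ± 0.489), and it was 3.68 ± 0.290 under cycloheximide, 3.62 ± 0.783 under myriocin and 3.99 ± 0.576 under rapamycin. COX5B minus COX5A was 2.49 to 3.36 without drug (2.79 ± 0.262), 2.34 to 3.90 under rapamycin (3.24 ± 0.484), 2.77 to 3.94 in LiCl with rapamycin (3.21 ± 0.346) and up to 3.25 under myriocin (2.49 ± 0.438). All of these ranges overlap with the drug-free range, and the differences themselves were not tested.

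Genes that build or feed the chain were read from lists chosen, like the members, with earlier results in view. Of 26 tested assembly factors 0 were called against no drug for any drug, with medians of -0.23, -0.23, 0.00 and -0.06 for cycloheximide, LiCl, myriocin and rapamycin. Between myriocin and LiCl 3 were higher, among them COX17, a copper chaperone for complex IV (0.68 ± 0.172, adjusted p = 0.00262). Of 4 Hap regulators 0 were called against no drug, and along the myriocin gradient, where 8.04% of all features were called lower, 2 fell, HAP4, the activation subunit (-0.65 ± 0.162, adjusted p = 0.00183), and HAP2 (-0.59 ± 0.166, adjusted p = 0.00489). Without cultures below a relative growth of 0.35 neither was called (-0.24 and -0.43). Over 238 libraries HAP4 had a median correlation of 0.644 with the 40 genes, and of 0.359 after the mean of each group in each experiment was removed. The same median for HAP4 with all tested features was not taken. Of 11 TCA cycle genes 0 were called against no drug, and of 10 NADH dehydrogenases and carriers 2 fell under myriocin (3.69% of all features were called lower), NDI1, the internal NADH dehydrogenase (-0.77 ± 0.25, adjusted p = 0.0299), and AAC1, a minor ADP/ATP carrier (-0.72 ± 0.220, adjusted p = 0.0203). NDI1 also fell along the myriocin gradient (-1.09 ± 0.175, adjusted p = 1.24e-05), also without cultures below a relative growth of 0.35 (-0.98 ± 0.242, adjusted p = 0.00923).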

How the data were processed

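Polyadenylated RNA of each culture was copied from barcoded poly(T) primers carrying a unique molecular identifier and sequenced as single-end reads, per the labels' protocols. TopHat, UMI-tools, featureCounts and build R64 are named, per the submitters' processing notes. For tool versions, strand setting and multiply matched reads, nothing is given in the sources used here. The deposited values are a quantile-normalised signal per gene, made by the authors from read counts: multiplied by 239, 77.2% lay within 0.01 of a whole number and 22.8% at steps of 0.5, and column totals were 595181 to 596851. Depth was estimated from the ties left in each column, from genes with about 30 reads; 8 libraries lay under 142211 reads, 0.25 of the median. No count test was used, since the file held normalised values. Normalisation to one distribution hides any change shared by all genes.

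Values were analysed as log2(value + 1) with limma 3.58.1 in R 4.3.3 (trended variance), over 5015 features with a mean of at least 10, with Benjamini-Hochberg adjustment; fold changes are on that scale and understate low genes. Group contrasts had the experiment and the growth-reference set as terms, and gradients the reference set. Calls needed an adjusted p under 0.05 and at least 1.5-fold. Gradients were fitted on growth inhibition and are given at a relative growth of 0.5; growth-matched means 0.35 to 0.66. The dose share of a mixture is the second drug's part of the sum of both doses, each divided by its median growth-matched dose alone in that experiment. Summaries, motif searches and figures used Python 3.11.15 with pandas 2.3.3, numpy 2.4.6, scipy 1.17.1 and matplotlib 3.10.9, and near copies of the genes were searched with blastn 2.17.0, which found none. Genes given in full were those called in a comparison, at most 4 each by size of change, and the CYC1/CYC7 and COX5A/COX5B pairs; other genes were named only if called and on a list, at most 3 per list, and further members named were chosen after their values were seen. Alternatives were a pseudocount of 10, no filter on low values, no shallow libraries, the library-number series as batch, final optical density as a term, and leaving out each experiment. The scripts were tested on simulated data. All columns were matched to samples, 0 pairs of libraries were identical, and the closest pair had r = 0.9885 (median pair 0.924). Members and gene lists were chosen with earlier results of these data known.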

Additional observations from a re-analysis of the deposited data

Results flagged for a closer look

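In 5 of 80 sets of values tested, 1 culture of a drug group of 10 lay far from the others; chance marks about 1 in 20 such sets. In cycloheximide replicate 2 (depth 969924), COR1, a core subunit of complex III, was at 115 with the next culture at 158, and the ATP synthase inhibitor INH1 was at 56.6 with the next at 101. In cycloheximide replicate 4 (depth 87091), COX9 was at 205 with the next at 145, and ATP14, a subunit of ATP synthase, was at 26.3 with the next at 43.6. In LiCl replicate 10, the library with the lowest depth (64843), CYC1 was at 34 with the next at 13.5.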

How the results depend on the processing

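Of 260 alternative values for 27 named calls, 215 kept direction and call, 44 kept direction and lost the call, and 1 turned: RIP1 along the myriocin gradient was at 0.43 without cultures below a relative growth of 0.35. Against no drug there were 6 calls, 2 with a pseudocount of 10 and 5 to 8 without 1 experiment. Between drugs there were 32, 15 with a pseudocount of 10, and 12 (without LM) to 44 (without LR). Along gradients there were 9, 5 with a pseudocount of 10 and 3 at a relative growth of at least 0.35. Beyond both single drugs there were 0, and 1 with the library-number series as batch. Departures numbered 1, with 0 at a pseudocount of 10, 3 without shallow libraries and 2 with the reference set as a term. The cause of these shifts was not tested. No paired analysis was possible because replicate numbers only name samples in accession order; this concerns pairs by replicate number between groups, and cultures of 1 dose in both reference sets were paired for final optical density. Depth as low as 64843 reads limits the low genes, such as RIP1 and SDH2, most.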

Other observations

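Among genes of the other lists, some departed from the line between the single drugs in mixtures, in directions that differed between mixtures. In LiCl with myriocin, where 5.52% of all features departed, CYB2, the cytochrome b2 that passes electrons from lactate to cytochrome c, departed upwards by 2.20 ± 0.205 on the log2 scale (adjusted p = 1.75e-11, limma) and lay beyond both single drugs by 1.00 ± 0.211 (adjusted p = 0.00184). In the same mixture 2 of 5 tested hypoxic genes, ANB1 (-1.67 ± 0.247, adjusted p = 1.62e-06) and HEM13, a heme synthesis enzyme (-1.09 ± 0.208, adjusted p = 0.000153), departed downwards, and HEM3, another enzyme of heme synthesis, upwards (0.83 ± 0.187, adjusted p = 0.00149).

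In myriocin with rapamycin, where 1.34% of all features departed, 3 of 5 tested hypoxic genes were called upwards: TIR1, a cell wall mannoprotein, by 1.86 ± 0.266 (adjusted p = 3.6e-05), ANB1 by 1.03 ± 0.190 (adjusted p = 0.000937) and HEM13 by 0.80 ± 0.162 (adjusted p = 0.00276). The other two, which are also among the 40, were at 0.38 ± 0.091 (COX5B) and -0.08 ± 0.168 (CYC7) and were not called. In cycloheximide with rapamycin TIR1 departed downwards (-0.76 ± 0.254, adjusted p = 0.0345), and in cycloheximide with LiCl ANB1 did (-0.97 ± 0.175, adjusted p = 0.00124). Along the rapamycin gradient TIR1 rose by 0.84 ± 0.0866 (adjusted p = 3.07e-09) and ANB1 by 0.72 ± 0.0919 (adjusted p = 2.26e-07). Of 7 glucose-repressed genes 2 were called higher and 1 lower under LiCl against no drug, where 4.41% of all features were called higher and 4.13% lower. HXT5, a hexose transporter, was higher by 1.75 ± 0.281 (adjusted p = 4.9e-06) and SUC2, the invertase gene, by 0.86 ± 0.196 (adjusted p = 0.00108), and HXT2, another hexose transporter, was lower (-0.80 ± 0.262, adjusted p = 0.026). Calls of these genes were not limited to LiCl. Under myriocin SUC2 was higher (0.59 ± 0.202, 3.53% of all features called higher) and HXT2 lower (-0.96 ± 0.27, 3.69% called lower). Under rapamycin HXT5 was higher (0.98 ± 0.28, 5.34% called in either direction). SUC2 also rose along the cycloheximide gradient (0.60 ± 0.146, 5.32% called in either direction) and fell along the myriocin gradient (-0.76 ± 0.154, 8.04% called lower). Along the LiCl gradient SUC2 (1.30 ± 0.232, adjusted p = 0.00018, limma) and HXT5 (1.16 ± 0.241, adjusted p = 0.00106) rose, where 2.65% of all features were called higher. ADH2, an alcohol dehydrogenase, fell along it (-0.68 ± 0.199, adjusted p = 0.0207), where 4.09% were called lower. These genes are from lists chosen with earlier results known.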
